A study of Mus musculus with 20 samples.

Results

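The genes described here are 37 genes of cholesterol synthesis, fatty acid synthesis and the liver X receptor (LXR) pathway, chosen by their symbols from the 23284 genes of the count table. All 37 were found and all 37 passed the filter on low counts. They fall into 17 genes of sterol synthesis, 6 genes of SREBP control and sterol transport, 9 genes of fatty acid synthesis and 5 genes of LXR and sterol efflux. They were measured by RNA sequencing in 20 libraries of DN3 thymocytes, the double-negative stage at which developing T cells depend on Notch1 and rearrange the T cell receptor beta locus.

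All mice were C57BL/6. The MxCre group (3 mice) carried the interferon-inducible MxCre transgene, and the DeltaMxCre group (3 mice) carried it with floxed Zmiz1 (MxCreZmiz1f/f). Both received 40 mcg of pI-pC intraperitoneally 5 times, once every 2 days, and cells were sorted 8 weeks later. MxCre is active in blood-forming cells and in other tissues that answer interferon. The TamCre group (4 mice) carried Rosa26CreERT2, a ubiquitously expressed tamoxifen-inducible Cre, and the DeltaTamCre group (4 mice) carried Rosa26CreERT2Zmiz1f/f. Both received 0.2 mg/g tamoxifen and were sorted 43 to 44 h later. Mice of the Control IgG and Anti-NRR groups (3 libraries each) received 10 mg/kg of an isotype antibody or of an antibody that blocks the negative regulatory region of Notch1, 24 h before sorting. How many mice the antibody libraries came from is not stated, so the spread between those libraries may be technical. The antibody and MxCre pairs shared an estimate of spread, so the edgeR p-values of both pairs rest in part on it. The MxCre, DeltaMxCre and antibody libraries were made from 50 ng of RNA with the SMARTer Ultra low input kit, and the TamCre and DeltaTamCre libraries from 100 ng with TruSeq mRNA v2, so that kit and model cannot be told apart. In bulk RNA, fewer cells of a type and less RNA per cell cannot be told apart either.

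Cells make cholesterol from acetyl-CoA through the mevalonate pathway, and the same precursor feeds fatty acid synthesis. When membrane cholesterol is low, SCAP carries the SREBP precursors out of the endoplasmic reticulum for cleavage, and the freed SREBPs activate the synthesis genes. INSIG proteins hold SCAP back when sterols are plentiful, and Insig1 is itself an SREBP target. The LXRs are nuclear receptors that bind oxysterols and act in the other direction, through the efflux pumps ABCA1 and ABCG1 and through MYLIP, which marks the LDL receptor for degradation. Dividing lymphocytes are known to raise sterol and fatty acid synthesis to build membrane.

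The bases before the start of 4 of these genes are shown because Insig1 and Fasn passed the test in at least 1 comparison, Hmgcs1 stands at the head of the mevalonate pathway and Srebf2 encodes the main sterol-regulated SREBP. They were taken from RefSeq promoters of GRCm38.p6, read 5′ to 3′ along the gene and cut before the earliest start in GENCODE vM21. For Fasn, on the minus strand, the RefSeq gene span reaches to 120825166, so the bases shown lie inside that span. Capitals mark 3 motifs on either strand: the core of the sterol regulatory element CACNCCA, the NF-Y box CCAAT and the GC box GGGCGG, and adjoining or overlapping matches run together.
Insig1, chr5:28071162-28071362, plus strand: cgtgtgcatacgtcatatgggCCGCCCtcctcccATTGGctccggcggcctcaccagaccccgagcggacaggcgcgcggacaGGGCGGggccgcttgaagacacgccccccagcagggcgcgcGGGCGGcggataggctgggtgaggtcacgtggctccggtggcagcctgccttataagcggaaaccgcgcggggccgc
Fasn, chr11:120824548-120824797, minus strand: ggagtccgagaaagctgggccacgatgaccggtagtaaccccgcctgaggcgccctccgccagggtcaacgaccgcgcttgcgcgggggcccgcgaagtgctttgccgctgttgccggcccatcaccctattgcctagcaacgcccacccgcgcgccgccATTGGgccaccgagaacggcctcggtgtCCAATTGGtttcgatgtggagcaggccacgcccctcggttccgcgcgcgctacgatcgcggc
Hmgcs1, chr13:119690101-119690350, plus strand: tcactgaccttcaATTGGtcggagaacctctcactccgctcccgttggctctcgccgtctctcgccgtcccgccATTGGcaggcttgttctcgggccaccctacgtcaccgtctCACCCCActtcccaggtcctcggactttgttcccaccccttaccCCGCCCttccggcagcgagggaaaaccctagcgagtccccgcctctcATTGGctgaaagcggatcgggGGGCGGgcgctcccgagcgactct
Srebf2, chr15:82147019-82147180, plus strand: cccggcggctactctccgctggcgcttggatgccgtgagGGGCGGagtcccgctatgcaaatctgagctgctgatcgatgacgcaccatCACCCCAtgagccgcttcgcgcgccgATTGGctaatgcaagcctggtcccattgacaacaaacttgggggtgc

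RefSeq promoters were found for 29 of the 37 genes. Those of Fdps, Fdft1, Sqle, Stard4, Scd1, Scd2, Fads1 and Abcg1 were not. In the 250 bases before the start, the NF-Y box was present in 21 of the 38 promoters of these 29 genes (55.3%), against 33.8% of all 32851 promoters. Counted by gene, it was in 20 of the 29 and in 13 of the 14 sterol synthesis genes with a promoter. The GC box was present in 26 of the 38 promoters (68.4%), against 32.7% of all promoters. The sterol element core was present in 6 of the 38 promoters (15.8%), those of Acat2, Hmgcs1, Insig1, Insig2 and Srebf2, a share near the 15.6% of all promoters. In Insig1 the core lay in the bases left out above, which GENCODE places in the first exon. The longer form TCACNCCAC was present in Hmgcs1 alone among these genes, against 1.05% of all promoters. The LXR repeat, which is the half-site AGGTCA written again after 4 free bases, was present in none of the 29 genes, against 0.0152% of all promoters. These matches describe letters in a window and are not measured binding sites.

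Levels are given in CPM, the authors' expected count of a gene divided by its library total, in units of 1e-06, after TMM scaling. The totals per library ran from 11695668 to 19133149 with SMARTer and from 52615332 to 101425251 with TruSeq, and groups are compared only within a kit. Fold changes are log2 ± SE, perturbed minus control, from the quasi-likelihood test of edgeR, with p adjusted over all genes by Benjamini and Hochberg (written "edgeR adjusted p"). A gene "rose" or "fell" where that p was under 0.05. Zmiz1 itself fell in DeltaMxCre from 331 ± 31.2 CPM (SD, n = 3) to 123 ± 8.27 CPM (SD, n = 3) and in DeltaTamCre from 293 ± 22.4 CPM (SD, n = 4) to 187 ± 23.4 CPM (SD, n = 4). The Notch1 target Dtx1 fell in Anti-NRR by 3.94 on the log2 scale. The labels' sort gate reads CD44-positive and CD25-negative, the reverse of textbook DN3. Il2ra, which encodes CD25, lay at 543 to 5890 CPM and Cd44 at 0.551 to 7.23 CPM. Of a list of 7 fat cell genes, Adipoq, Plin1 and Lep were at 0 in all 20 libraries, the other 4 were above 0 in some, and the list summed to at most 0.761 CPM. A list of 14 macrophage and myeloid genes summed to 10.7 to 31.6 CPM, with Lyz2 at 4.04 to 23.6 CPM, Itgam at 0.373 to 3 CPM, Csf1r at up to 1.79 CPM and C1qa at up to 0.524 CPM. A list of 10 thymic epithelial and stromal genes summed to 164 to 353 CPM, with Epcam at 45.8 to 87.2 CPM and the epithelial factor Foxn1 at 0 in all 20 libraries. The part of these cells in the results was not tested.

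Per transcript length, the authors' deposited table gives group means in FPKM, which divides the fragments of a gene by its transcript length and by depth. In MxCre its highest values among the 37 genes were 213.7 for Scd2, a stearoyl-CoA desaturase, 93.9 for Fdps, 92.4 for Acly and 76.8 for Idi1. The lowest were 4.33 for Scd1, 2.42 for Abca1 and 1.76 for Nr1h3, which encodes LXR alpha. No FPKM in that table is under 1, so its lowest levels may hold an added constant and are uncertain. Nr1h2, which encodes LXR beta, lay at 45.9 to 75.6 CPM in the SMARTer libraries and at 100.0 to 129 CPM in the TruSeq libraries, and Nr1h3 at 0 to 2.98 CPM and 0.493 to 1.4 CPM. Scd1 and Nr1h3 were at 0 in the library Anti-NRR 2, where a count of 0 allows up to 0.253 CPM (3 counts, counting error only).

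**Figure D1:**
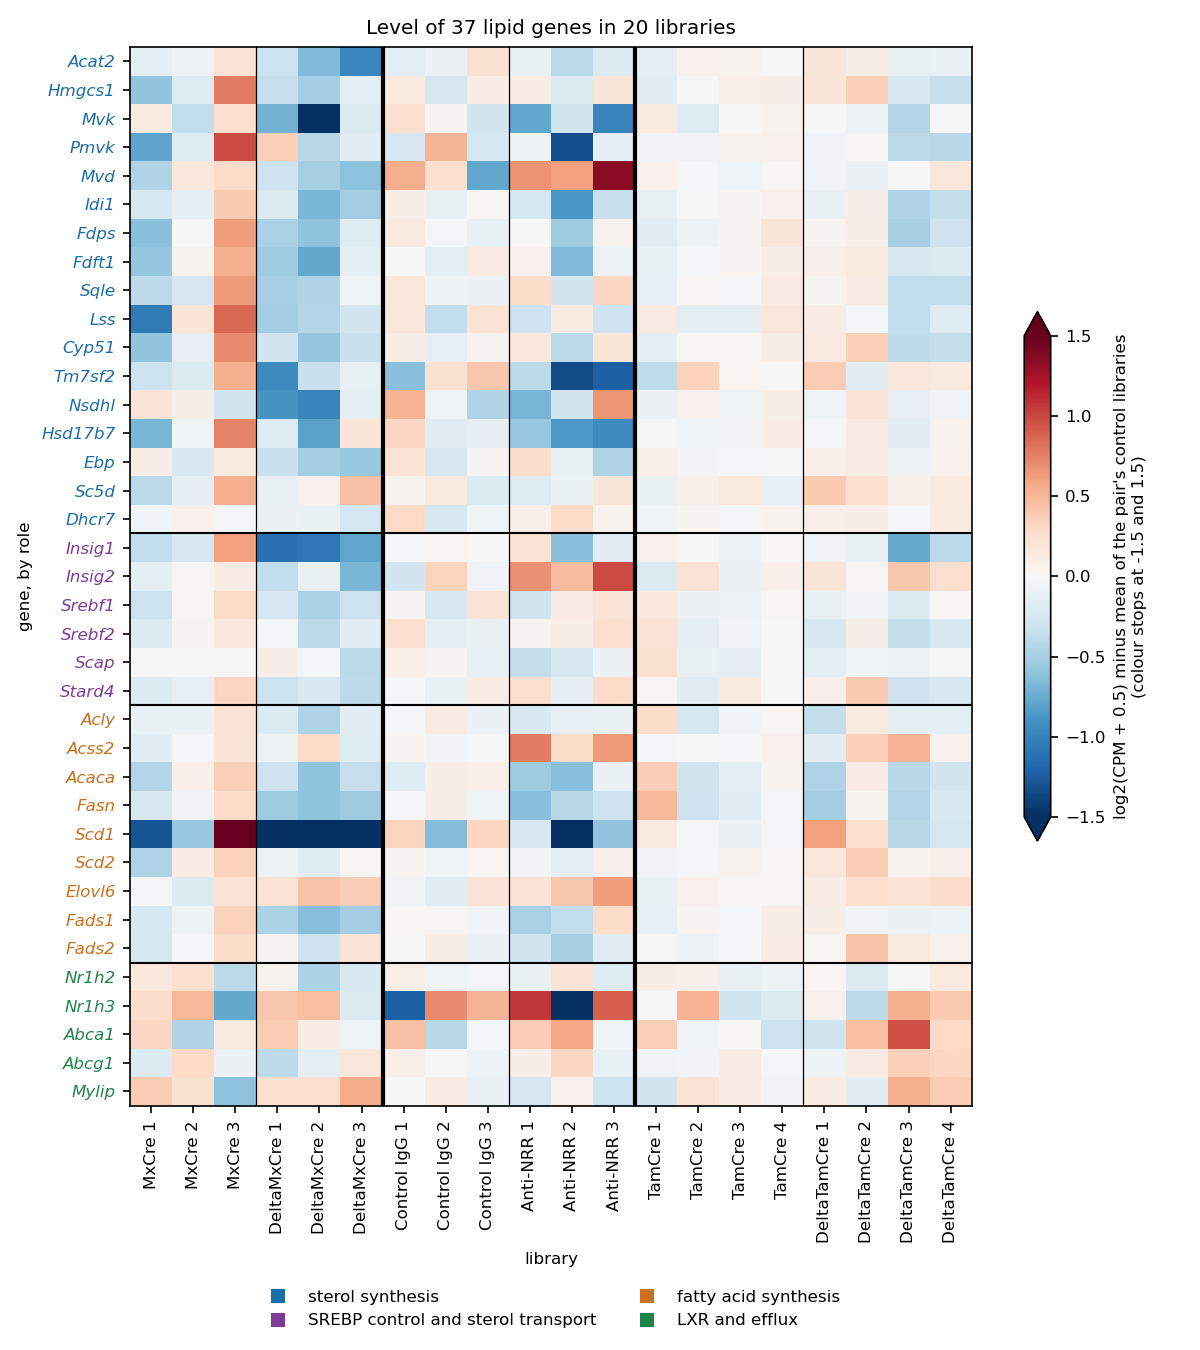
Each cell is the log2(CPM + 0.5) of 1 gene in 1 library minus the mean of its pair's control libraries, with genes in rows grouped by role and the 20 libraries in columns. The column of MxCre 3 is red over most sterol synthesis genes, with a median of 0.54, and MxCre 3 is the highest of the 6 MxCre and DeltaMxCre libraries for 15 of those 17 genes and for none of the 5 LXR and efflux genes.

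In DeltaMxCre, 8 weeks after deletion, Insig1 and Fasn fell and none of the 37 genes rose. That is 2 of 37 genes called, against 2.94% of all 13557 genes tested, of which 1.67% rose and 1.27% fell. Most of the other genes had lower means in DeltaMxCre: 31 of 37 fold changes were below 0, against 53.3% of all genes, and 13 of 37 had an unadjusted p under 0.05, 12 of them below 0, against 16.5% of all genes. Of the 37, 9 had every DeltaMxCre library below every MxCre library, against 10.8% of all genes, and 1, Elovl6, had every DeltaMxCre library above, against 10.2%. The median log2 fold change was -0.50 for sterol synthesis, -0.35 for SREBP control and sterol transport, -0.28 for fatty acid synthesis and 0.12 for LXR and efflux, beside -0.03 for all genes.

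Among the SREBP regulators, Insig1, the sterol-dependent anchor of SCAP, was at 63.5, 69.1 and 126 CPM in the 3 MxCre libraries and at 37.4, 38.9 and 47.5 CPM in the 3 DeltaMxCre libraries. The groups did not overlap, and the highest value was that of MxCre 3. Insig1 fell by 1.06 ± 0.23 on the log2 scale (edgeR adjusted p = 0.0152). The edgeR adjusted p was 0.0683 without DeltaMxCre 1 and 0.111 without DeltaMxCre 2, while without MxCre 3 the fold change was -0.67 with an adjusted p of 0.0466. RefSeq places the noncoding gene Gm35223 over the Insig1 span, and counting by strand is not stated, so reads of the pair cannot be told apart.

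Its paralogue Insig2 was at 22.9, 25.5 and 27.2 CPM in MxCre and at 19.3, 23.4 and 15.4 CPM in DeltaMxCre. These groups overlapped, with a log2 fold change of -0.38 ± 0.25 (edgeR adjusted p = 0.49). Srebf1, which encodes the SREBP-1 forms that favour fatty acid genes, was at 105, 134 and 160 CPM and at 109.8, 94.3 and 105 CPM. The lowest MxCre library lay within the DeltaMxCre range, and the log2 fold change was -0.37 ± 0.16 (edgeR adjusted p = 0.218). Srebf2 was at 346, 409 and 446 CPM in MxCre and at 390.2, 303 and 353 CPM in DeltaMxCre. It too overlapped, with a log2 fold change of -0.20 ± 0.12 (edgeR adjusted p = 0.462). Scap, the escort protein, was at 93.2, 93 and 93.2 CPM and at 99.5, 91.2 and 70.4 CPM, with a log2 fold change of -0.10 ± 0.14 (edgeR adjusted p = 0.815). The 3 MxCre libraries were nearly equal for Scap and DeltaMxCre 3 was the lowest. Stard4, a cytosolic sterol carrier, did not overlap between the groups and had a log2 fold change of -0.33 ± 0.17 (edgeR adjusted p = 0.347).

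No sterol synthesis gene passed the test in DeltaMxCre by edgeR or by DESeq2, although 16 of the 17 fold changes were below 0 and 5 had an unadjusted edgeR p under 0.05. Hmgcs1, the synthase that commits acetyl units to the mevalonate pathway, was at 121, 159 and 312 CPM in MxCre and at 143, 128 and 164 CPM in DeltaMxCre. MxCre 3 stood at the top and the other MxCre libraries lay on both sides of the DeltaMxCre mean, with a log2 fold change of -0.45 ± 0.31 (edgeR adjusted p = 0.561). Sqle, the squalene epoxidase, was at 69.3, 76 and 142 CPM and at 64.2, 66.1 and 87 CPM. Apart from MxCre 3 its values were interleaved, with a log2 fold change of -0.40 ± 0.24 (edgeR adjusted p = 0.434). Cyp51, the lanosterol demethylase, was at 76, 105 and 188 CPM and at 93.1, 76.5 and 90.8 CPM, with MxCre 3 again at the top and a log2 fold change of -0.50 ± 0.27 (edgeR adjusted p = 0.399). The other 14 genes had fold changes from -0.77 for Mvk, the mevalonate kinase, to 0.10 for Sc5d, the lathosterol oxidase. Acat2, Ebp and Dhcr7 were the sterol genes whose groups did not overlap, with log2 fold changes of -0.66 ± 0.32, -0.49 ± 0.23 and -0.15 ± 0.15.

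In fatty acid synthesis, Fasn, the fatty acid synthase, was at 511, 587 and 740 CPM in MxCre and at 419.6, 397 and 418 CPM in DeltaMxCre. The DeltaMxCre libraries were close together and all lay below the lowest MxCre library. Fasn fell by 0.57 ± 0.12 on the log2 scale (edgeR adjusted p = 0.00803). Without DeltaMxCre 2 the edgeR adjusted p was 0.0574, with only these 6 libraries in the fit it was 0.0611, and without MxCre 3 it was 0.0375 at a fold change of -0.41. Scd1, a desaturase, was at 3.94, 6.81 and 39 CPM and at 2.64, 2.43 and 1.38 CPM. The groups did not overlap, yet MxCre 3 held most of the difference, and the log2 fold change of -2.95 ± 1.21 did not pass (edgeR adjusted p = 0.264), although it did without Anti-NRR 2, a library of the shared fit in which Scd1 was at 0. Scd2 was at 836, 1249 and 1468 CPM and at 1091, 1018 and 1174 CPM, which overlapped, with a log2 fold change of -0.11 ± 0.14 (edgeR adjusted p = 0.767). Acly (ATP citrate lyase) and Fads1 (delta-5 desaturase) had every DeltaMxCre library below every MxCre library, with log2 fold changes of -0.28 ± 0.12 and -0.57 ± 0.18. Elovl6, which elongates palmitate, went the other way, with a log2 fold change of 0.33 ± 0.14 (edgeR adjusted p = 0.212). Its groups were barely apart, with the highest MxCre library at 129.3 CPM and the lowest DeltaMxCre library at 129.4 CPM. Acaca (acetyl-CoA carboxylase), Acss2 (acetyl-CoA synthetase) and Fads2 (delta-6 desaturase) overlapped, with log2 fold changes of -0.46 ± 0.17, 0.02 ± 0.19 and -0.03 ± 0.15.

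None of the 5 LXR and efflux genes passed in DeltaMxCre by edgeR or by DESeq2, and none had an unadjusted edgeR p under 0.05. Abca1, the pump that loads cholesterol onto apolipoprotein A-I, was at 30.9, 17.9 and 27.3 CPM in MxCre and at 32.4, 26.6 and 23.6 CPM in DeltaMxCre, a log2 fold change of 0.12 ± 0.25 (edgeR adjusted p = 0.885). Abcg1, the pump that passes cholesterol to HDL, was at 150.3, 214 and 163 CPM and at 132, 157 and 195 CPM, a log2 fold change of -0.12 ± 0.14 (edgeR adjusted p = 0.763). Both overlapped between groups. Mylip was at 48.8, 43.6 and 24.2 CPM and at 44.6, 44.3 and 54.8 CPM, with a log2 fold change of 0.30 ± 0.21 (edgeR adjusted p = 0.525). For Mylip it was MxCre 3 that was the lowest of the 6 libraries. Nr1h2 was at 71.6, 75.6 and 48.2 CPM and at 66.4, 45.9 and 54.4 CPM, a log2 fold change of -0.23 ± 0.18 (edgeR adjusted p = 0.608). Nr1h3 was at 1.79, 2.19 and 0.621 CPM and at 2.02, 2.1 and 1.16 CPM, with overlapping groups and a log2 fold change of 0.20 ± 1.16 (edgeR adjusted p = 0.963).

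**Figure D2:**
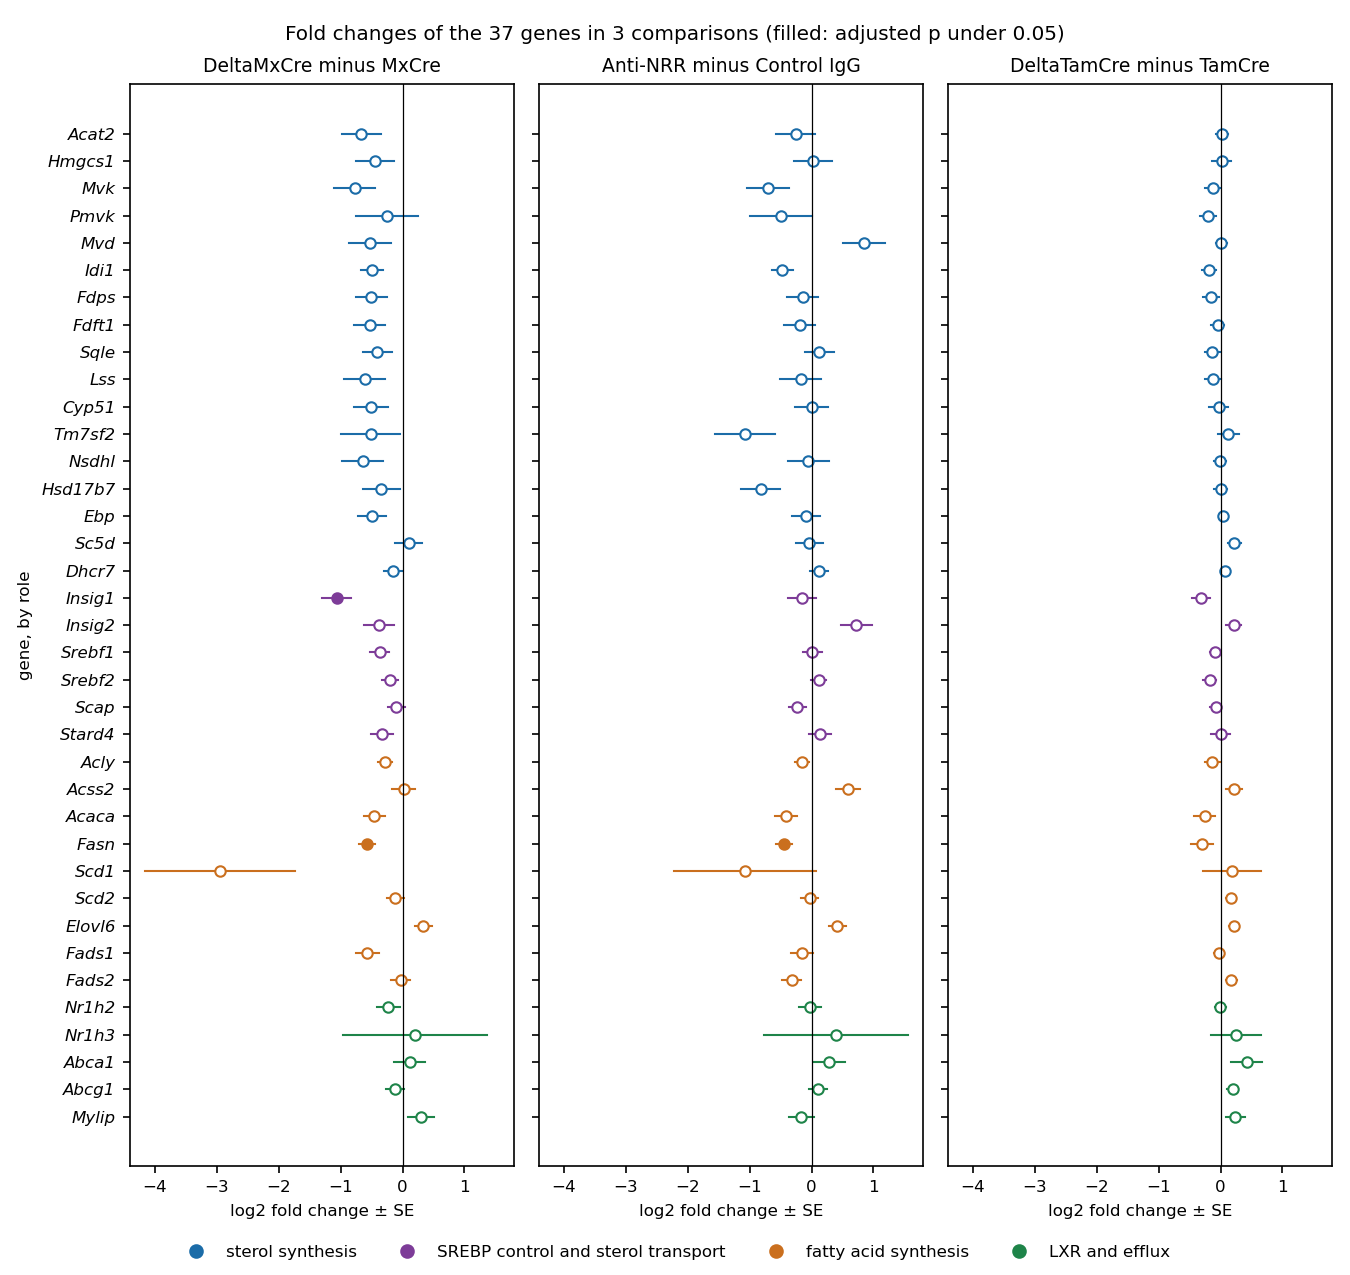
Points are log2 fold changes of the 37 genes in the 3 comparisons and bars are SE, with filled points for an edgeR adjusted p under 0.05 and colours for roles. Insig1 and Fasn are filled for DeltaMxCre, Fasn alone for Anti-NRR and no gene for DeltaTamCre.

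The library MxCre 3 carried much of the size of these differences. It was the highest of the 6 libraries for 27 of the 37 genes, against 3342 of the 13557 genes tested: 15 of 17 sterol synthesis genes, 5 of 6 SREBP genes, 7 of 9 fatty acid genes and none of the 5 LXR and efflux genes. Its ratio to the mean of MxCre 1 and MxCre 2 had a median of 1.76 for sterol synthesis (range 0.735 to 2.91), 1.26 for SREBP control, 1.35 for fatty acid synthesis and 0.655 for LXR and efflux. The summed level of the 17 sterol synthesis genes was 832, 1031 and 1590 CPM in MxCre 1, 2 and 3 and 866, 756 and 936 CPM in the DeltaMxCre libraries. A list of 20 proliferation genes summed to 4842, 4190 and 8668 CPM in MxCre and to 5572, 4336 and 4715 CPM in DeltaMxCre. The proliferation sum was thus also highest in MxCre 3, and its part in the sterol result was not tested.

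Without MxCre 3, the median log2 fold change of sterol synthesis was -0.15 with 12 of 17 genes below 0, that of SREBP control -0.17 with 6 of 6 below 0, that of fatty acid synthesis -0.16 with 5 of 9 below 0 and that of LXR and efflux -0.17 with 3 of 5 below 0. The median over all genes was then 0.00, with 50.1% of genes below 0. Hmgcs1 moved from -0.45 to 0.06, Sqle from -0.40 to 0.01 and Cyp51 from -0.50 to -0.05. Nsdhl, a sterol dehydrogenase of the demethylation steps, was farther from 0, going from -0.65 to -0.77. Insig1 and Fasn remained the 2 genes called among the 37, while 427 genes were called in all, against 399 with MxCre 3. Leaving out MxCre 1 instead, the lowest MxCre library for 14 of the 17 sterol genes, gave 8 called genes (Fdps, Fdft1, Lss, Cyp51, Insig1, Acaca, Fasn and Fads1) and a sterol median of -0.68, while 339 genes were called in all. Leaving out DeltaMxCre 1 gave 1 called gene of the 37 with 365 in all, and leaving out DeltaMxCre 2 gave none of the 37 with 138 in all.

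**Figure D3:**
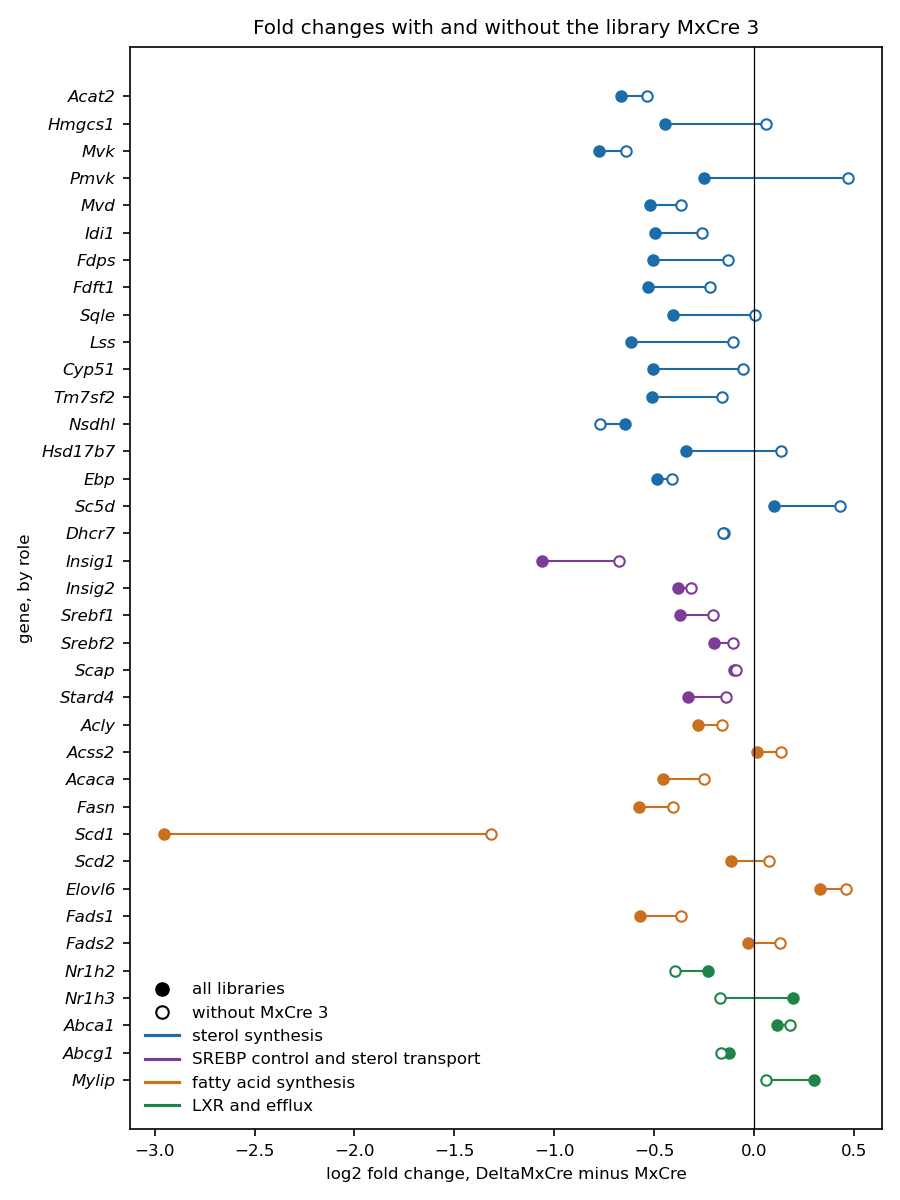
Each row is 1 gene, with its DeltaMxCre log2 fold change from all 12 SMARTer libraries (filled point) and without MxCre 3 (open point), coloured by role. Of the 17 sterol synthesis genes, 13 lie nearer 0 without that library, and Insig1 moves from -1.06 to -0.67.

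After 24 h of Notch1 blockade, Fasn was the only gene of the 37 that passed the test, and it fell. That is 1 of 37, against 4.06% of all 13557 genes tested, of which 1.66% rose and 2.4% fell. Of the 37 fold changes, 24 were below 0, against 51.7% of all genes, and 11 had an unadjusted edgeR p under 0.05, against 16.3%. The sterol synthesis genes had a median log2 fold change of -0.14 and the fatty acid genes one of -0.15, beside -0.02 for all genes. The SREBP genes had a median of 0.06 and the LXR and efflux genes one of 0.11, and both turned with 1 library left out, ranging from -0.0228 to 0.12 and from -0.0035 to 0.11. The groups did not overlap for 10 genes, in both directions: Mvd, Insig2, Acss2 and Elovl6 were higher in every Anti-NRR library (4 of 37, against 10.3% of all genes), and Mvk, Idi1, Hsd17b7, Acly, Fasn and Fads2 lower (6 of 37, against 11.3%).

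Fasn was at 472, 515 and 459 CPM in the Control IgG libraries and at 312, 360.3 and 389.7 CPM in the Anti-NRR libraries. All Anti-NRR values lay below all Control IgG values. Fasn fell by 0.45 ± 0.12 on the log2 scale (edgeR adjusted p = 0.0336). With any 1 of Control IgG 1, Control IgG 2, Control IgG 3, Anti-NRR 1 or Anti-NRR 2 left out, the edgeR adjusted p was between 0.0789 and 0.18. Without MxCre 3, which shares the estimate of spread, Idi1 and Elovl6 passed beside Fasn. The neighbouring step Acaca had a log2 fold change of -0.41 ± 0.17, and Acly one of -0.15 ± 0.12. Scd1 was at 8.1, 3.85 and 8.05 CPM and at 5.32, 0 and 4.02 CPM, a log2 fold change of -1.08 ± 1.15 (edgeR adjusted p = 0.745). Scd2 was at 1274, 1184 and 1260 CPM and at 1208, 1128 and 1310 CPM, nearly level, with a log2 fold change of -0.03 ± 0.14 (edgeR adjusted p = 0.959).

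Acss2, which makes acetyl-CoA from acetate, was at 39.5, 37 and 38.5 CPM in Control IgG and at 66.2, 46.6 and 60.1 CPM in Anti-NRR. The lowest Anti-NRR library lay above the highest Control IgG library, and the log2 fold change of 0.59 ± 0.19 was short of the threshold (edgeR adjusted p = 0.0771; DESeq2 adjusted p = 0.0432). The antisense gene Acss2os overlaps it, so that its reads cannot be told apart here. Elovl6 was at 111, 103 and 131 CPM and at 132, 152 and 176 CPM. Its groups were just apart, with a log2 fold change of 0.42 ± 0.14 (edgeR adjusted p = 0.0966). Elovl6 was also the fatty acid gene with every perturbed library above every control library in DeltaMxCre and in DeltaTamCre. In DeltaMxCre the margin was very small, 129.4 CPM against 129.3 CPM.

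**Figure D4:**
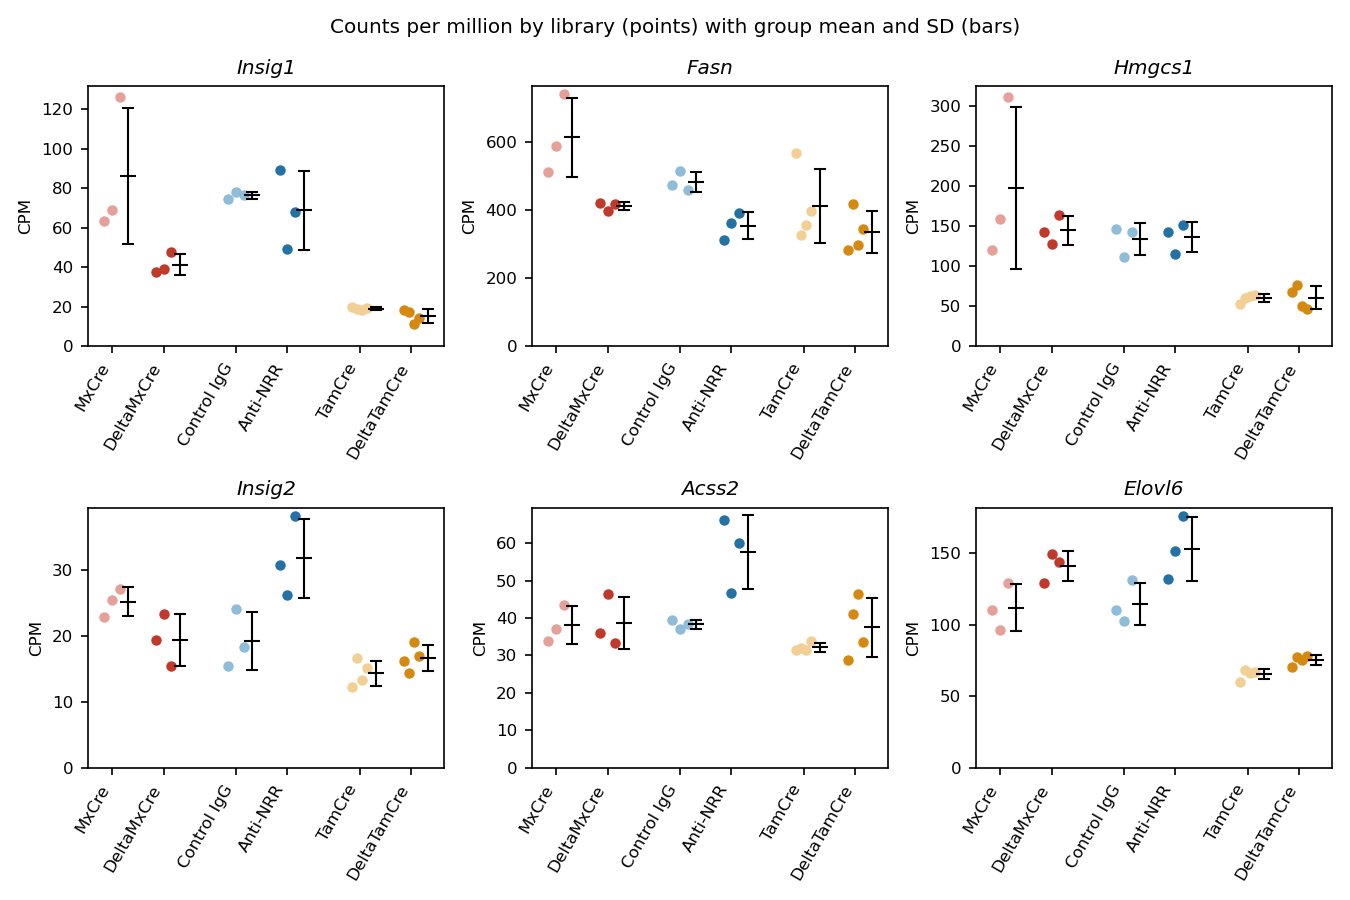
Points are CPM of 6 genes in each of the 20 libraries by group, with the group mean and SD as bars. Fasn sits lower in DeltaMxCre than in MxCre and lower in Anti-NRR than in Control IgG without overlap, and Elovl6 sits higher in the perturbed group of all 3 pairs.

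Insig2 was at 15.5, 24.1 and 18.3 CPM in Control IgG and at 30.9, 26.3 and 38.2 CPM in Anti-NRR. Every Anti-NRR library was higher, with a log2 fold change of 0.72 ± 0.25 (edgeR adjusted p = 0.108). Insig1 was at 74.7, 78 and 76.5 CPM and at 89.2, 49.3 and 67.9 CPM. The Control IgG values were close together inside the wider Anti-NRR range, and the log2 fold change was -0.15 ± 0.23 (edgeR adjusted p = 0.837). Srebf1 was at 120.2, 98.9 and 134 CPM and at 95, 127 and 134 CPM, a log2 fold change of 0.01 ± 0.16 (edgeR adjusted p = 0.986). Srebf2 was at 434, 336 and 343 CPM and at 379, 394 and 434 CPM, a log2 fold change of 0.12 ± 0.12 (edgeR adjusted p = 0.736). Neither SREBP gene was separated between the groups. Scap was at 112, 109 and 97.1 CPM and at 82.5, 89.7 and 99.4 CPM, also overlapping, with a log2 fold change of -0.23 ± 0.14 (edgeR adjusted p = 0.468).

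In sterol synthesis under Anti-NRR, no gene passed by edgeR or by DESeq2, and 5 of 17 had an unadjusted edgeR p under 0.05. Hmgcs1 was at 147, 111 and 143 CPM in Control IgG and at 143, 115 and 151 CPM in Anti-NRR, a log2 fold change of 0.03 ± 0.31 (edgeR adjusted p = 0.983). Sqle was at 84.6, 71.4 and 70.5 CPM and at 90.8, 61.9 and 93.8 CPM, a log2 fold change of 0.12 ± 0.24 (edgeR adjusted p = 0.88). Cyp51 was at 98.7, 85.4 and 95.2 CPM and at 104, 70 and 105 CPM, with means of 93.1 and 93.0 CPM. These 3 genes overlapped, and Anti-NRR 2 was the lowest Anti-NRR library for each. Early steps of the pathway lay on both sides of 0. Mvk, the mevalonate kinase, was at 21, 18.2 and 14.4 CPM and at 10.1, 14.3 and 8.57 CPM, a log2 fold change of -0.71 ± 0.33. Pmvk, the phosphomevalonate kinase of the next step, overlapped between groups, with a log2 fold change of -0.49 ± 0.50. Mvd, the mevalonate decarboxylase, was at 13.2, 10.6 and 4.96 CPM and at 14.5, 13.9 and 23.6 CPM, a log2 fold change of 0.85 ± 0.34. Idi1, the isopentenyl diphosphate isomerase that follows it, was at 177, 154 and 169 CPM and at 138, 90.3 and 132 CPM, a log2 fold change of -0.47 ± 0.17. Mvk, Mvd and Idi1 did not overlap between groups, with Mvd higher and Mvk and Idi1 lower under the antibody. Hsd17b7, a sterol 3-ketoreductase, had a log2 fold change of -0.82 ± 0.31 and no overlap, and Tm7sf2, a sterol reductase, one of -1.07 ± 0.49 with overlap. The edgeR adjusted p of these 5 genes was between 0.149 and 0.288, so none is a call.

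Among the LXR and efflux genes under Anti-NRR, none passed by edgeR or by DESeq2, and none had an unadjusted edgeR p under 0.05. Abca1 was at 42.1, 23 and 30.4 CPM in Control IgG and at 40.5, 46.4 and 29.5 CPM in Anti-NRR, a log2 fold change of 0.28 ± 0.25 (edgeR adjusted p = 0.657). Abcg1 was at 255, 243 and 229 CPM and at 258, 301 and 224 CPM, a log2 fold change of 0.11 ± 0.14 (edgeR adjusted p = 0.801). In both, Anti-NRR 2 was the highest of the 6 libraries. Mylip was at 55.1, 60.1 and 51.6 CPM and at 46.7, 58 and 44.4 CPM, a log2 fold change of -0.16 ± 0.21 (edgeR adjusted p = 0.785). Nr1h2 was at 60.7, 54.8 and 56.6 CPM and at 53.6, 65.5 and 50.1 CPM, a log2 fold change of -0.03 ± 0.18 (edgeR adjusted p = 0.973). Nr1h3 was at 0.209, 2.21 and 1.86 CPM and at 2.98, 0 and 2.58 CPM, with overlapping values in each of these 3 genes.

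Other marker lists moved with the antibody. A list of 10 DN3 genes summed to 15880 to 16170 CPM in Control IgG and to 9130 to 9986 CPM in Anti-NRR, with 6 of 10 members fallen (Ptcra, Il2ra, Dtx1, Cd3g, Notch3 and Notch1). The list of earlier or later thymocyte markers summed to 188 to 225 CPM and to 280 to 337 CPM, with Kit risen. A list of 10 thymic epithelial and stromal genes summed to 265 to 284 CPM and to 334 to 353 CPM, in which Pecam1 went from 169 ± 2.73 CPM (SD, n = 3) to 232 ± 19.3 CPM (SD, n = 3) and Foxn1 was at 0 in every library. The 20 proliferation genes summed to 2952, 3063 and 2693 CPM in Control IgG and to 1737, 2210 and 3531 CPM in Anti-NRR. The part of these markers in the lipid gene values was not tested.

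At 43 to 44 h after tamoxifen, none of the 37 genes passed in DeltaTamCre, by edgeR or by DESeq2, and 3 had an unadjusted edgeR p under 0.05, against 16% of all genes. In this comparison edgeR called 12 of 13460 genes, 0.0892%, of which 0.0594% rose and 0.0297% fell, and DESeq2 called 545 genes. The fold changes of the 37 genes ran from -0.32 for Insig1 to 0.42 for Abca1, with 19 below 0 against 46.2% of all genes. The median was -0.01 for sterol synthesis, -0.08 for SREBP control, 0.17 for fatty acid synthesis and 0.24 for LXR and efflux, beside 0.02 for all genes. Elovl6 was the only gene whose groups did not overlap, higher in DeltaTamCre (1 of 37, against 4.84% of all genes), and none was lower in every library (against 5.75%). Elovl6 was at 60.3, 68.2, 66.3 and 66.6 CPM in TamCre and at 70.6, 77.7, 75.6 and 78.2 CPM in DeltaTamCre. Its log2 fold change was 0.21 ± 0.07 (edgeR adjusted p = 0.183).

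Insig1 was at 19.9, 19, 18.1 and 19.3 CPM in the 4 TamCre libraries and at 18.4, 17.6, 11.1 and 14.2 CPM in the 4 DeltaTamCre libraries. TamCre was tight, and DeltaTamCre 2, 3 and 4 lay below it while DeltaTamCre 1 lay within it, with a log2 fold change of -0.32 ± 0.14 (edgeR adjusted p = 0.308). Insig2 was at 12.3, 16.7, 13.3 and 15.1 CPM and at 16.2, 14.4, 19 and 17 CPM, a log2 fold change of 0.22 ± 0.12 (edgeR adjusted p = 0.417). Srebf1 was at 184, 155, 157 and 167 CPM and at 153, 160.1, 143 and 167 CPM, a log2 fold change of -0.09 ± 0.08 (edgeR adjusted p = 0.614). Both overlapped. Srebf2 was at 285, 224, 239 and 248 CPM and at 212, 264, 193 and 212 CPM, a log2 fold change of -0.18 ± 0.11 (edgeR adjusted p = 0.439). Scap was at 189.6, 151, 147 and 161 CPM and at 145, 154, 152 and 162 CPM, a log2 fold change of -0.08 ± 0.09 (edgeR adjusted p = 0.69). TamCre 1 was the highest library for Srebf1, Srebf2 and Scap.

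Fasn was at 566, 325, 356 and 397 CPM in TamCre and at 281, 417, 297 and 343 CPM in DeltaTamCre. TamCre 1 stood above all 7 other libraries, and the log2 fold change of -0.30 ± 0.18 became -0.11 without it (edgeR adjusted p = 0.444 with it and 0.799 without it). Scd1 was at 0.576, 0.457, 0.417 and 0.45 CPM and at 0.991, 0.648, 0.231 and 0.31 CPM, under 1 CPM in every library, with a log2 fold change of 0.18 ± 0.47 (edgeR adjusted p = 0.881). Scd2 was at 818, 841, 878 and 861 CPM and at 955, 1108, 878 and 894 CPM, with DeltaTamCre 3 level with the highest TamCre library and the other DeltaTamCre libraries above it, and a log2 fold change of 0.17 ± 0.08 (edgeR adjusted p = 0.328). Hmgcs1 was at 53.1, 60.1, 63 and 64.2 CPM and at 68.2, 77, 50.7 and 47 CPM, a log2 fold change of 0.02 ± 0.15 (edgeR adjusted p = 0.971). Sqle was at 46.4, 51.1, 50 and 54.8 CPM and at 51.9, 54.8, 39 and 38.9 CPM, a log2 fold change of -0.13 ± 0.12 (edgeR adjusted p = 0.611). Cyp51 was at 36.2, 40.9, 40.7 and 42.4 CPM and at 43.8, 51.4, 30.4 and 31.2 CPM, a log2 fold change of -0.03 ± 0.16 (edgeR adjusted p = 0.94). DeltaTamCre 3 and 4 were the lowest 2 of the 8 libraries for Hmgcs1, Sqle and Cyp51, and DeltaTamCre 1 and 2 the highest 2 for Hmgcs1 and Cyp51.

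Among the efflux genes, DeltaTamCre 3 and 4 were the highest 2 of the 8 libraries for Abcg1 and Mylip. Abca1 was at 12.8, 9.43, 10 and 7.83 CPM in TamCre and at 7.95, 13.7, 19.8 and 12.2 CPM in DeltaTamCre, a log2 fold change of 0.42 ± 0.25 (edgeR adjusted p = 0.436). Abcg1 was at 148, 149.6, 167 and 151 CPM and at 146, 168, 198 and 192 CPM, a log2 fold change of 0.19 ± 0.10 (edgeR adjusted p = 0.349). Mylip was at 29.5, 41.3, 38.8 and 34.7 CPM and at 38.7, 31.9, 52.6 and 46.6 CPM, a log2 fold change of 0.24 ± 0.15 (edgeR adjusted p = 0.48). DeltaTamCre 3 was the highest library for Abca1 too, so that all 3 had the same top library. Nr1h2 was at 124, 122, 108 and 110.4 CPM and at 118, 100, 117 and 129 CPM, a log2 fold change of -0.00 ± 0.09 (edgeR adjusted p = 0.989). Nr1h3 was at 0.794, 1.37, 0.56 and 0.618 CPM and at 0.863, 0.493, 1.4 and 1.21 CPM, a log2 fold change of 0.24 ± 0.41 (edgeR adjusted p = 0.81). The 20 proliferation genes summed to 7234, 7932, 6017 and 5708 CPM in DeltaTamCre 1 to 4 and to 7455, 6001, 7315 and 7430 CPM in TamCre 1 to 4. The lowest sums were those of DeltaTamCre 4, TamCre 2 and DeltaTamCre 3. The part of proliferation in the sterol and efflux values was not tested. A list of 14 myeloid genes summed to 10.7 to 16.6 CPM in TamCre and to 17.5 to 21.1 CPM in DeltaTamCre, without overlap. Of its 8 genes tested, 2 had fold changes below 0 and none passed, with a median log2 fold change of 0.43. The part of these genes in the lipid gene values was not tested.

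Sterol synthesis was set against efflux within groups. For each library, the deviation of each gene from its own group's mean was taken on the log2(CPM + 0.5) scale, and the median was formed over the 17 sterol synthesis genes and over Abca1, Abcg1 and Mylip. The 2 medians had opposite signs in 13 of 20 libraries: 3 of 3 in MxCre, 1 of 3 in DeltaMxCre, 1 of 3 in Control IgG, 3 of 3 in Anti-NRR, 1 of 4 in TamCre and 4 of 4 in DeltaTamCre. Deviations within a group sum to about 0, so the libraries of a group are not independent, and no test was made. How often other sets of genes had opposite signs was not counted, so the 13 of 20 has no share beside it. MxCre 3 had the highest sterol median, 0.54, with an efflux median of -0.09. MxCre 1 had the lowest, -0.41, with an efflux median of 0.32. DeltaTamCre 3 had -0.17 and 0.33, DeltaTamCre 1 had 0.16 and -0.26, and Anti-NRR 2 had -0.24 and 0.23. TamCre 2, which was also low in the proliferation sum, had -0.0016 and -0.0406. Same signs were also seen in DeltaMxCre 3, at 0.19 and 0.20, and in Control IgG 1, at 0.15 and 0.07.

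**Figure D5:**
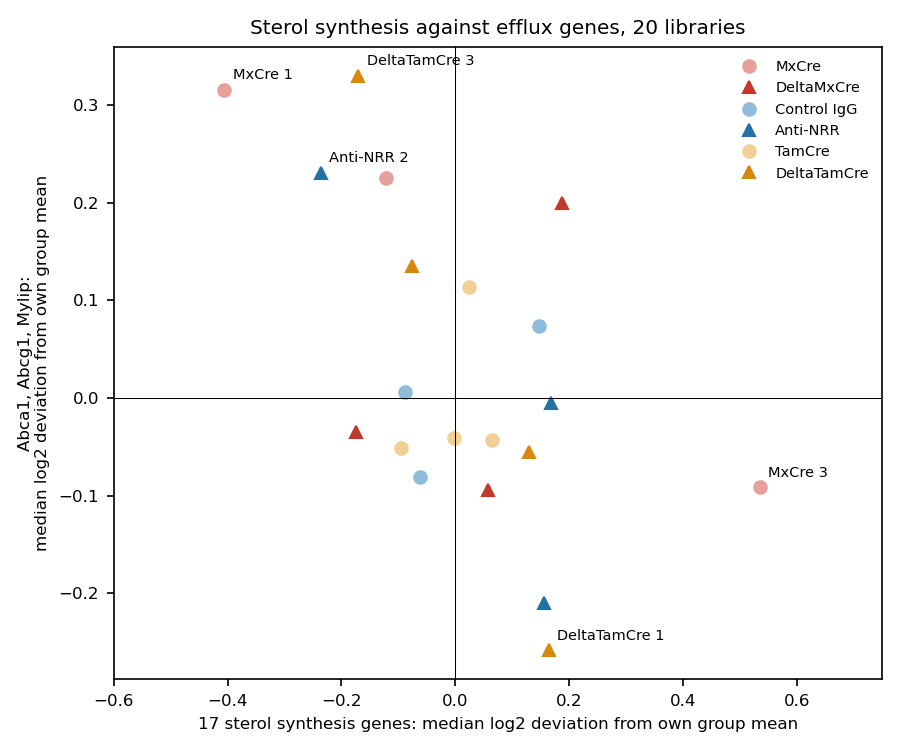
Each point is 1 of 20 libraries, with the median log2 deviation from its own group's mean over 17 sterol synthesis genes on the x axis and over Abca1, Abcg1 and Mylip on the y axis, circles for control and triangles for perturbed groups. MxCre 1 and DeltaTamCre 3 lie at the upper left, at 0.32 and 0.33 on the y axis, and MxCre 3 at the far right, at 0.54 on the x axis.

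Whether the effects differed between perturbations was tested as a difference of fold changes. None of the 37 genes passed in any of the 3 differences, by edgeR or by DESeq2. The shares of all genes called by edgeR were 1.23% for DeltaMxCre minus Anti-NRR, 0.166% for DeltaTamCre minus DeltaMxCre and 0.698% for DeltaTamCre minus Anti-NRR. The share of all genes with an unadjusted edgeR p under 0.05 was not counted for these differences. Of the 37 genes, 4, 5 and 4 had such a p. Those with the lowest p between DeltaMxCre and Anti-NRR were Insig2, at -1.10 ± 0.35 (edgeR adjusted p = 0.135), and Mvd, at -1.37 ± 0.48 (edgeR adjusted p = 0.191). The Insig1 effect differed by -0.91 ± 0.33 between DeltaMxCre and Anti-NRR (edgeR adjusted p = 0.212) and by 0.70 ± 0.29 between DeltaTamCre and DeltaMxCre (edgeR adjusted p = 0.646). For Fasn, the DeltaMxCre effect minus the Anti-NRR effect was -0.13 ± 0.17 (edgeR adjusted p = 0.832). Thus the fall of Insig1 in DeltaMxCre is not shown to be particular to that model. Across the 3 pairs, which share no library, 15 of the 37 genes had fold changes below 0 in all 3, against 21.5% of the 12819 genes tested in both fits, among them Insig1, Acly, Acaca, Fasn, Mvk and Idi1. Above 0 in all 3 were 4 of the 37 (Acss2, Elovl6, Nr1h3 and Abca1), against 19.6%. The Insig1 value in Anti-NRR is among those that turn with 1 library left out, from -0.38 to 0.0426.

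Further genes of the same pathways were taken from lists. Of 9 other sterol and isoprenoid genes, 2 passed in Anti-NRR. Lbr, the lamin B receptor with sterol reductase activity, rose (log2 0.51 ± 0.11, edgeR adjusted p = 0.00856). Pdss1, a subunit of the enzyme that makes the coenzyme Q side chain, fell (log2 -1.36 ± 0.39, edgeR adjusted p = 0.0463). None of 7 other SREBP processing genes passed in any comparison by edgeR. They summed to 603 to 684 CPM in MxCre and to 516 to 571 CPM in DeltaMxCre.

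Of 17 tested genes of fatty acid and lipid synthesis, Gpam, the first acyltransferase of glycerolipid synthesis, fell in Anti-NRR from 55.7 ± 12.4 CPM (SD, n = 3) to 27.4 ± 4.82 CPM (SD, n = 3) (log2 -1.03 ± 0.22, edgeR adjusted p = 0.0067), and none passed in DeltaMxCre. Of 12 tested LXR partners, efflux and storage genes, Soat1, which esterifies cholesterol for storage, rose in Anti-NRR from 284 ± 32 CPM (SD, n = 3) to 517 ± 57.3 CPM (SD, n = 3) (log2 0.86 ± 0.12, edgeR adjusted p = 0.000131). Arl4c, a small GTPase, rose in DeltaMxCre from 91.9 ± 18.5 CPM (SD, n = 3) to 138 ± 11.8 CPM (SD, n = 3) (log2 0.59 ± 0.14, edgeR adjusted p = 0.019). Of 13 fatty acid oxidation genes, Cpt1a, which admits long-chain fatty acids to mitochondria, fell in DeltaMxCre (log2 -0.47 ± 0.12, edgeR adjusted p = 0.0258), and Acadl, a long-chain acyl-CoA dehydrogenase, rose in Anti-NRR (log2 0.52 ± 0.13, edgeR adjusted p = 0.0147). None of these lists had a called member in DeltaTamCre by edgeR.

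In the thymocyte lists, Rag1 fell in DeltaMxCre (log2 -0.78 ± 0.11, edgeR adjusted p = 0.000193), Cd44 fell (log2 -3.07 ± 0.71, edgeR adjusted p = 0.0151) and Cd28 rose (log2 0.64 ± 0.17, edgeR adjusted p = 0.0336). The summed earlier or later thymocyte markers were 201 to 243 CPM in MxCre, 269 to 304 CPM in DeltaMxCre, 156 to 196 CPM in TamCre and 206 to 271 CPM in DeltaTamCre. Their part in the lipid gene values was not tested.

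In the authors' deposited table, a q-value under 0.05 is given to 6 of the 37 genes for DeltaMxCre (Lss, Insig1, Acaca, Fasn, Scd1 and Fads1), where edgeR called 2 at the same threshold. For Anti-NRR the authors' deposited table gives it to 7 (Mvd, Idi1, Hsd17b7, Acss2, Acaca, Fasn and Elovl6), where edgeR called 1, and for DeltaTamCre to Fasn alone, where edgeR called none. At a q-value under 0.1 the authors' deposited table holds 9 for DeltaMxCre, all lower, with Mvk, Fdps and Nsdhl added, against 5.46% of its 23284 genes. It holds the same 7 for Anti-NRR, with Mvd, Acss2 and Elovl6 higher and the others lower, against 7.99%, and Acaca and Fasn, both lower, for DeltaTamCre, against 6.5%. Those 23284 genes include genes of low count that edgeR did not test, whereas all 37 were tested. The authors' shares over all genes are thus lower than shares over tested genes alone may be. The share of all genes at a q-value under 0.05 was not counted. At an adjusted p under 0.1, edgeR gave 3 for DeltaMxCre (Insig1, Fasn and Fads1), against 5.3% of the genes tested, 3 for Anti-NRR (Acss2, Fasn and Elovl6), against 6.31%, and none for DeltaTamCre, against 0.468%. For Fasn in DeltaTamCre the authors' deposited table gives a fold of 0.749 and a q-value of 0.0148, and for Acaca a q-value of 0.0815.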

How the data were processed

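RNA was sequenced from 20 libraries of sorted DN3 thymocytes in 6 groups. Per the submitters' processing notes, reads were aligned to mm10 with TopHat2 2.0.9 and quantified with Cufflinks and Cuffdiff 2.1.1. Which annotation and strand setting were used is not stated there. The count table holds expected counts estimated by the authors, of which 98.38% are whole, and no 2 of the 190 pairs of libraries were identical. The authors' comparison table gives, per gene and group, a mean FPKM, with a fold (a ratio of perturbed to control), a p-value and a q-value, per the file headers. It has no FPKM under 1. Whether a constant was added to low values is not stated, and folds of genes with a value under 2 (Scd1, Nr1h3 and, in the tamoxifen pair, Abca1) may be understated.

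The deposited expected counts were rounded to whole numbers. Tests used filterByExpr, TMM scaling and the robust quasi-likelihood fit of edgeR 4.0.16 (R 4.3.3), with Benjamini-Hochberg adjustment over all genes and a threshold of 0.05. The 12 SMARTer libraries shared 1 fit, the 8 TruSeq libraries another, and differences that involve the tamoxifen pair came from a fit of all 20 (13895 genes). SE is the fold change divided by the root of F. Scripts were tested on simulated data, with 50 randomly picked genes changed at each fold. Of 1.5-fold changes, 14% were recovered for DeltaMxCre, 24% for Anti-NRR and 52% for DeltaTamCre. Of 2-fold changes, 48%, 48% and 72% were recovered. Of the simulated calls, 0%, 9.09% and 6.61% were false. A gene that did not pass may thus still have changed by such a fold. Alternatives were RLE scaling, DESeq2 1.42.0, no filter and a stricter filter, only the groups compared, a replicate block, and leaving out each library. The genes, lists and tests were chosen with earlier results of these data known. Values in every library are given for genes called in any comparison, for the SREBP and LXR regulators and efflux genes, and for Hmgcs1, Sqle, Cyp51, Fasn, Scd1 and Scd2; of the other lists, every called gene is named except for a result that is not reported here. Elovl6, Acss2, Mvk, Mvd and Idi1 are given by library in addition in some of the comparisons, chosen after their values were seen. The promoter search read RefSeq tables in Python. RefSeq places another gene over the span of 16 of the 37 genes, 5 of them with a coding gene (Fdft1, Tm7sf2, Srebf1, Acaca and Nr1h3), and those values are uncertain to that extent.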

Additional observations from a re-analysis of the deposited data

Results flagged for a closer look

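Abcg1 in TamCre 3 stood apart from its group, at 167 CPM against 149 to 151 CPM in the other 3 TamCre libraries. The gap to the nearest library was 0.841 of the group's range, above Dixon's 95% critical value for 4 libraries. Chance flags about 1 in 20 groups, and 74 groups of 4 were checked. Groups of 3 were not checked in this way, and MxCre 3 is described in the report only by its values.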

How the results depend on the processing

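Of the calls, Insig1 and Fasn in DeltaMxCre and Fasn in Anti-NRR passed under RLE scaling, DESeq2, no filter, a stricter filter and the replicate block. With only the groups compared in the fit, 1 gene was called in DeltaMxCre (Insig1) and 2 in Anti-NRR (Idi1 and Fasn), and DESeq2 called 2 in Anti-NRR (Acss2 and Fasn). With 1 library left out, 0 to 8 genes were called in DeltaMxCre and 0 to 3 in Anti-NRR, and none in DeltaTamCre. The most came without MxCre 1 in DeltaMxCre and, in Anti-NRR, without MxCre 3, a library of the shared fit. No difference between perturbations passed for any of the 37 genes under the alternatives run. Fold changes near 0 turned: Cyp51 in Anti-NRR to 0.0035 with RLE scaling, 0.0031 with DESeq2 and 0.0016 with a stricter filter, and Nr1h2 in DeltaTamCre to 0.007 with a stricter filter.

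Same-numbered libraries did not deviate together (correlations of -0.0529 to 0.0151 in the MxCre pair, -0.0255 to 0.0363 in the antibody pair and -0.5399 to -0.0135 in the tamoxifen pair). Differently numbered libraries of the tamoxifen pair ranged from -0.1418 (TamCre 3 with DeltaTamCre 4) to 0.4737 (TamCre 1 with DeltaTamCre 2). The cause of these correlations was not tested. With the replicate block the genes called stayed at 2, 1 and 0, those of all genes were 457, 548 and 0 against 399, 551 and 12, the fatty acid median of DeltaTamCre was 0.0007 and Hmgcs1 there -0.0101.

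With 1 library left out, the medians ranged in DeltaMxCre from -0.68 to -0.15 (sterol), -0.44 to -0.17 (SREBP) and -0.17 to 0.28 (LXR and efflux), in Anti-NRR from -0.24 to -0.0015 (sterol), -0.40 to -0.12 (fatty acid), -0.0228 to 0.12 (SREBP) and -0.0035 to 0.11 (LXR and efflux), and in DeltaTamCre from -0.13 to 0.0217 (sterol) and -0.0646 to 0.19 (fatty acid). Genes that turned ranged, in DeltaMxCre, from -0.0748 to 0.28 (Abca1), -0.28 to 0.0458 (Abcg1), -0.70 to 0.058 (Hmgcs1), -0.59 to 0.005 (Sqle), -0.31 to 0.0776 (Scd2), -0.17 to 0.55 (Nr1h3) and -0.20 to 0.0343 (Scap). In Anti-NRR they ranged from -0.0978 to 0.17 (Cyp51), -0.14 to 0.0522 (Nr1h2), -0.13 to 0.97 (Nr1h3), -0.0856 to 0.14 (Hmgcs1), -0.0969 to 0.15 (Srebf1), -0.38 to 0.0426 (Insig1), -0.0855 to 0.0252 (Scd2) and -0.0035 to 0.21 (Abcg1). In DeltaTamCre they ranged from -0.13 to 0.11 (Hmgcs1), -0.065 to 0.0491 (Nr1h2), -0.27 to 0.44 (Scd1) and -0.20 to 0.0678 (Cyp51). The cause was not tested beyond the library left out. Of all genes, DESeq2 called 691 in DeltaMxCre and 545 in DeltaTamCre, and only the groups compared gave 183 in DeltaMxCre. Nr1h3 had an SE of 1.16 in DeltaMxCre and in Anti-NRR, beside log2 fold changes of 0.20 and 0.39. Differences of that size were not detectable there.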
